A study of Mus musculus with 43 samples.

Results

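The 10 genes described here are 8 Toll-like receptors (Tlr1, Tlr2, Tlr3, Tlr4, Tlr6, Tlr7, Tlr9 and Tlr13), Cd14 and Myd88. They were taken by symbol from the 23953 gene symbols of the microglia files, and all 10 were among the 10394 genes that averaged at least 1 FPKM over the microglia libraries and were tested. FPKM is the number of fragments scaled to transcript length and to library size, so levels of different genes can be set side by side. Microglia, the resident macrophages of the brain, were sorted from mouse visual cortex by CD11b and CD45 and gave 12 libraries in 3 groups of 4. CK mice are wild type controls by the labels. CK-p25 mice carry p25, the shortened form of the Cdk5 activator p35, and GFP on a tetO transgene that a tTA driven by the CaMKIIα promoter switches on in excitatory neurons, so the transgene is not driven in microglia. They were induced for 6 weeks and either left without stimulation (untreated CK-p25) or given gamma entrainment using sensory stimuli (GENUS), 40 Hz visual flicker for 43 days. The sources used here do not give the age of these mice or the number of animals behind a library, so n counts libraries.

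Toll-like receptors bind conserved molecules of microbes and of damaged cells. At the cell surface TLR2 pairs with TLR1 or TLR6 to bind lipopeptides, and TLR4 binds lipopolysaccharide, which the co-receptor CD14 hands to it. TLR3, TLR7, TLR9 and the mouse receptor TLR13 sit in endosomes and bind nucleic acids. MYD88 is the adaptor that carries the signal of all of these receptors except TLR3 to kinases that activate NF-κB, which drives cytokine genes and its own inhibitors.

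The promoters of Tlr2, Tlr1, Tlr6 and Myd88 are shown because Tlr2 and Tlr1 rose, their partner Tlr6 did not pass the test, and Myd88 fell in CK-p25 microglia. Each line gives the 250 bases before a gene start in the RefSeq table of GRCm38.p6, read 5′ to 3′ along the gene's own strand, which is the minus strand for all of them. The Tlr2 window is chr3:83841609-83841858. The Tlr1 window is chr5:64933559-64933808 and the Tlr6 window is chr5:64959167-64959416, upstream of it on the same strand. The Myd88 window is chr9:119340019-119340268. Capitals mark every match, on either strand, to the motifs searched.
Tlr2: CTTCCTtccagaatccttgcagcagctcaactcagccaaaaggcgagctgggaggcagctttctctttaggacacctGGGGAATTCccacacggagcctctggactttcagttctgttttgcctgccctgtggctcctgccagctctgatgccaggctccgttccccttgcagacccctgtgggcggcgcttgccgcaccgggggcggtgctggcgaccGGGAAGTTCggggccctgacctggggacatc
Tlr1: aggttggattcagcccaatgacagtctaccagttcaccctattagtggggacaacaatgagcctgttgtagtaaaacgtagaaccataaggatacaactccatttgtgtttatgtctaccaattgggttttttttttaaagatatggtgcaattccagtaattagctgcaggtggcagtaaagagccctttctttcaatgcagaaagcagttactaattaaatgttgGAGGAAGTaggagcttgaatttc
Tlr6: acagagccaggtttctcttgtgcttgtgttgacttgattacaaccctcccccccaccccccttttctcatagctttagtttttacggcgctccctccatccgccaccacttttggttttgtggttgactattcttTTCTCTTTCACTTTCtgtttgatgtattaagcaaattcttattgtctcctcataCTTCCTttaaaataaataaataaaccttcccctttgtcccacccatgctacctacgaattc
Myd88: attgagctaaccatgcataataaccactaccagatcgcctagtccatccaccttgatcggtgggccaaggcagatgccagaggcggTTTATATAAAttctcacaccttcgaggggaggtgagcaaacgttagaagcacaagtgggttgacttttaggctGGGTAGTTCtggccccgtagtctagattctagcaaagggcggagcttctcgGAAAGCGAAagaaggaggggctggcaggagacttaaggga

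The motifs searched were the PU.1 motif GAGGAAGT, its core AGGAAG, which lies inside it, and the partial NF-κB motif GGGNNNTTC. The interferon-stimulated response element GAAANNGAA, the AP-1 motif TGANTCA and TATAAA were searched too. GGGNNNTTC covers only part of an NF-κB site, so a match to it need not be a whole site. The Tlr2 window held the partial NF-κB motif at 2 places, starting at -173 and -31 from the gene start. It also held an AGGAAG core at -250. The partial NF-κB motif was in 11.8% of the 32851 RefSeq windows of the same length, and 0.822% held 2 or more matches. The Tlr1 window held the PU.1 motif at -23, which 2.44% of windows had. The Tlr6 window held no partial NF-κB or full PU.1 match. It had 2 overlapping matches to the interferon element at -115 and -109 and an AGGAAG core at -61. The interferon element was in 7.13% of windows, and 0.469% had 2 or more. The Myd88 window held the partial NF-κB motif at -91 and the interferon element at -40. It also held TATAAA letters at -164 and -160 that overlap, the last motif being in 12.4% of windows. The AGGAAG core was in 29.5% and the AP-1 motif in 6.75% of windows, and none of these 4 windows held the AP-1 motif. Tlr1 and Tlr6 each have a second RefSeq start. The second Tlr1 window held no match, and the second Tlr6 window held the partial NF-κB motif at -99. In all, 7 of the 10 genes had a window in the table. These matches describe the letters of a window and were not tested as binding sites. The windows shown were chosen by the results of their genes, so the shares are no test of a motif.

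Tlr2, Cd14 and Tlr1 rose in untreated CK-p25 microglia and Myd88 fell, while the other 6 genes did not pass the test. A gene is called here when its limma p, adjusted over all tested genes, is under 0.05, and log2 changes are of FPKM + 1. The 3 higher calls stand beside 16.1% of all tested genes called higher, and the 1 lower call beside 10.9% called lower. The 4 untreated CK-p25 libraries lay wholly above the 4 CK libraries for the same 3 genes and wholly below them for Myd88. Such a lack of overlap, in either direction, was found for 27.9% of tested genes. The median log2 change of the 10 genes was -0.05, and that of all tested genes was -0.02. In bulk libraries, fewer cells of a type and less RNA per cell cannot be told apart.

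**Figure D1:**
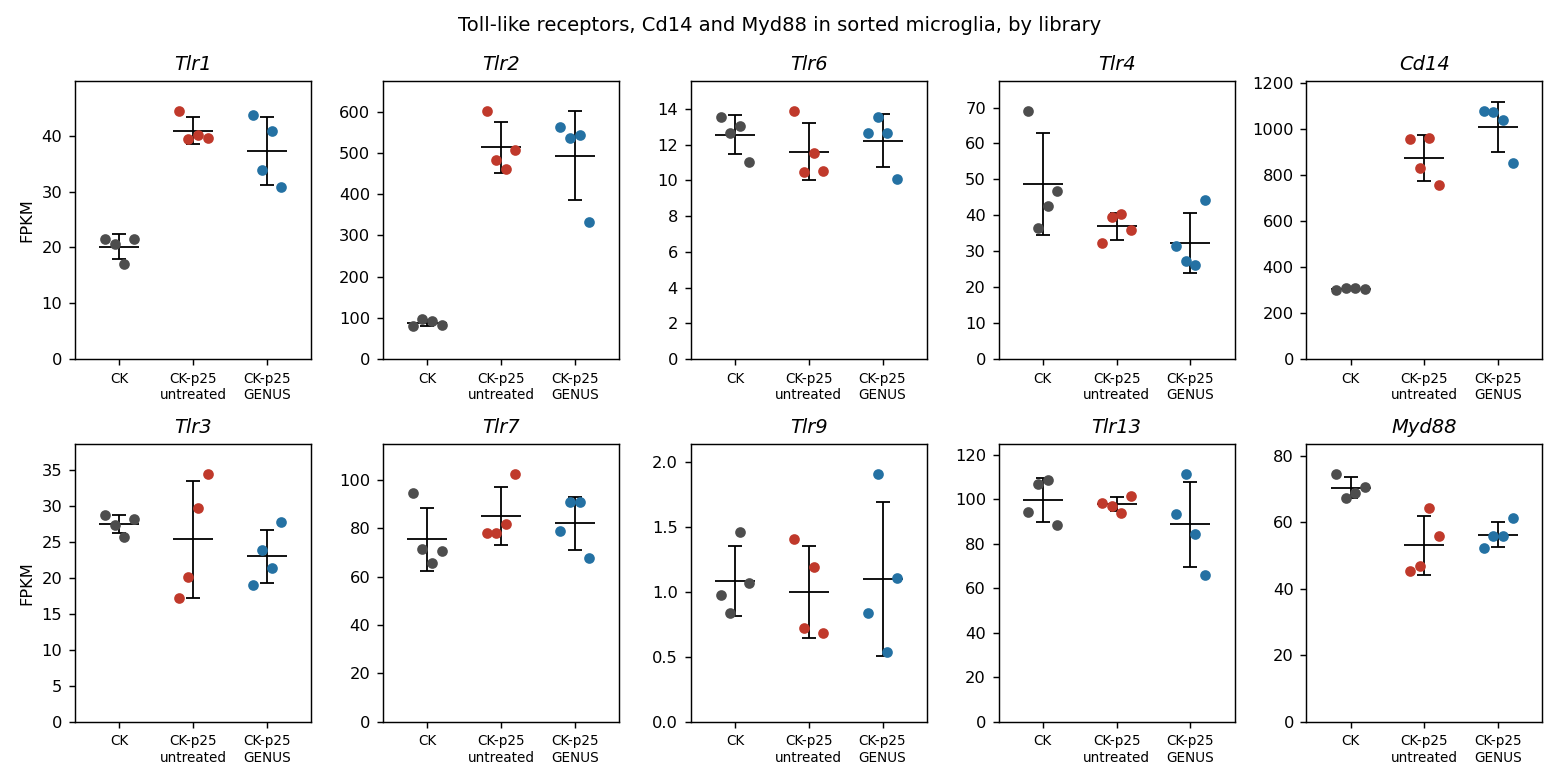
FPKM (vertical axis, linear from 0, with its own range in each panel) of the 10 genes in each microglia library. Points are libraries, replicates 1 to 4 from left to right in each group, and the bar and whiskers are the mean and SD of 4 libraries. For Tlr2, Cd14 and Tlr1 both CK-p25 groups sit above all CK libraries, and for Myd88 below them, while the groups of the other 6 genes overlap.

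Tlr2, the receptor common to both lipopeptide-binding pairs, was at 80.87, 97.01, 91.31 and 82.25 FPKM in CK replicates 1 to 4. It was at 602.7, 483.8, 460.3 and 508.0 FPKM in untreated CK-p25 replicates 1 to 4, and at 562.2, 536.8, 544.8 and 332.9 FPKM in GENUS CK-p25 replicates 1 to 4. Every CK-p25 library was far above every CK library, and GENUS replicate 4 was the lowest of the 8. The untreated CK-p25 mean was 5.85 times the CK mean (log2 change 2.53, SE 0.15, 95% interval 2.21 to 2.86, limma adjusted p = 5.63e-08).

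Cd14, the co-receptor that binds lipopolysaccharide and lipopeptides, was at 302.1, 310.4, 306.9 and 305.9 FPKM in the CK libraries. It was at 957.1, 830.0, 961.9 and 756.8 FPKM in untreated CK-p25 microglia. The CK libraries were nearly level (306.3 ± 3.42 FPKM, SD, n = 4), the untreated CK-p25 libraries were more spread (SD 100), and the groups did not overlap. The ratio of means was 2.86 (log2 change 1.51, SE 0.10, 95% interval 1.29 to 1.72, limma adjusted p = 1.36e-07).

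Tlr1, a partner of TLR2 for triacylated lipopeptides, was at 21.57, 20.57, 16.99 and 21.55 FPKM in CK and at 44.49, 39.36, 40.19 and 39.66 FPKM in untreated CK-p25 microglia. The groups did not overlap, and untreated replicate 1 was the highest. The ratio of means was 2.03 (log2 change 0.99, SE 0.12, 95% interval 0.73 to 1.25, limma adjusted p = 3.3e-05). Tlr6, the partner for diacylated lipopeptides, was at 11.05 to 13.53 FPKM in CK, 10.49 to 13.90 in untreated and 10.09 to 13.57 in GENUS CK-p25 microglia. Its 3 groups overlapped, and its log2 change in untreated CK-p25 microglia was -0.11 (95% interval -0.38 to 0.16, limma adjusted p = 0.572). Tlr1 and Tlr6 are close paralogs in neighbouring positions, and the way in which the authors' counting shared reads between them is unknown here, so the split between them is uncertain.

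Tlr4, the lipopolysaccharide receptor, was at 69.09, 36.43, 42.52 and 46.69 FPKM in CK replicates 1 to 4, at 32.20, 39.54, 40.30 and 35.87 in untreated CK-p25 and at 31.40, 27.37, 26.24 and 44.19 in GENUS CK-p25 microglia. CK replicate 1 stood highest, and both CK-p25 groups overlapped the CK libraries. The log2 change in untreated CK-p25 microglia was -0.35 (SE 0.19, 95% interval -0.76 to 0.06, limma adjusted p = 0.196), opposite in sign to that of Cd14. The ratio of Cd14 to Tlr4 FPKM was 6.67 ± 1.73 (SD, n = 4) in CK, 23.9 ± 4.08 (n = 4) in untreated and 33.2 ± 9.56 (n = 4) in GENUS CK-p25 microglia. Its lowest CK-p25 value, 19.3, was above its highest CK value, 8.52.

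None of the endosomal receptors passed the test in untreated CK-p25 microglia. Tlr13, which binds bacterial ribosomal RNA in mice, was at 88.33 to 108.6 FPKM in CK and 93.81 to 101.4 in untreated CK-p25 libraries (log2 change -0.02, 95% interval -0.31 to 0.26, limma adjusted p = 0.928). Tlr7, a sensor of single-stranded RNA, was at 65.51 to 94.70 and 77.91 to 102.7 FPKM (log2 change 0.18, 95% interval -0.12 to 0.47, limma adjusted p = 0.376). Tlr9, a sensor of unmethylated CpG DNA, was the least abundant of the 10, at 0.533 to 1.91 FPKM over all 12 libraries, and its log2 change was -0.07 (95% interval -0.56 to 0.43, limma adjusted p = 0.859). At levels this close to the added 1 FPKM a log2 change understates the change of the gene.

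Tlr3, the sensor of double-stranded RNA that signals through TICAM1, was at 28.72, 27.44, 25.74 and 28.22 FPKM in CK, at 17.16, 20.08, 29.80 and 34.54 in untreated CK-p25 and at 19.09, 23.88, 21.40 and 27.76 in GENUS CK-p25 microglia. Untreated CK-p25 replicates 1 and 2 were below all CK libraries, and replicates 3 and 4 were above all of them. Its log2 change over the 4 replicates was -0.16 (SE 0.19, limma adjusted p = 0.563). Fitted within replicates 1 and 2 of each group it was -0.57 (SE 0.17, limma adjusted p = 0.0426), and within replicates 3 and 4 it was 0.24 (SE 0.17, limma adjusted p = 0.397). The difference between these sets was not tested. Fits within these replicate sets, here and below, were added after the data were seen.

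Those replicate sets also differed in markers of other immune cells. Replicates 3 and 4 of each group had more T and NK cell marker RNA than replicates 1 and 2 in every group. The summed FPKM of the 6 markers was 0.684 and 0 in CK replicates 1 and 2 and 16.1 and 15.5 in replicates 3 and 4. It was 1.71 and 0.773 against 132 and 147 in untreated CK-p25 libraries, and 0 and 1.54 against 153 and 121 in GENUS CK-p25 libraries. Neutrophil markers summed to 260 to 415 FPKM in CK, 158 to 349 in untreated CK-p25, 19.7, 88.2 and 50.5 in GENUS replicates 1 to 3 and 1110 in GENUS replicate 4, the library with the lowest Tlr2 of its group. Monocyte markers summed to 46.0 to 64.9 FPKM in CK, where the sets overlapped. They were higher in replicates 3 and 4 of both CK-p25 groups. The sums were 61.8 and 55.9 against 178 and 147 in untreated, and 31.9 and 45.4 against 86.7 and 147 in GENUS CK-p25 libraries. Of the tested markers of these lists, 0 of 6 T and NK cell, 0 of 7 neutrophil and 0 of 7 monocyte genes were called in any direction between untreated CK-p25 and CK. The 6 T and NK cell log2 changes were all upward, from 0.31 (SE 0.84, Gzma) to 1.95 (SE 1.19, Cd3g). With errors this wide, the lack of calls does not show that the groups held these cells alike. Within replicates 3 and 4, T and NK cell and monocyte sums were higher in both CK-p25 groups than in CK. Neutrophil sums of untreated CK-p25 replicates 3 and 4 were below those of CK. Perivascular macrophage markers were lower in CK replicates 3 and 4 (72.2 and 124 FPKM) than in replicates 1 and 2 (263 and 184). The same held in untreated CK-p25 libraries (90.6 and 118 against 305 and 276). In GENUS CK-p25 libraries the sets overlapped (186 and 253 against 178 and 229). The part of these cells in the values above was not tested. The rises of Tlr2, Cd14 and Tlr1 were called within each set, with log2 changes of 2.59, 1.54 and 0.96 in replicates 1 and 2 and of 2.47, 1.47 and 1.02 in replicates 3 and 4.

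**Figure D2:**
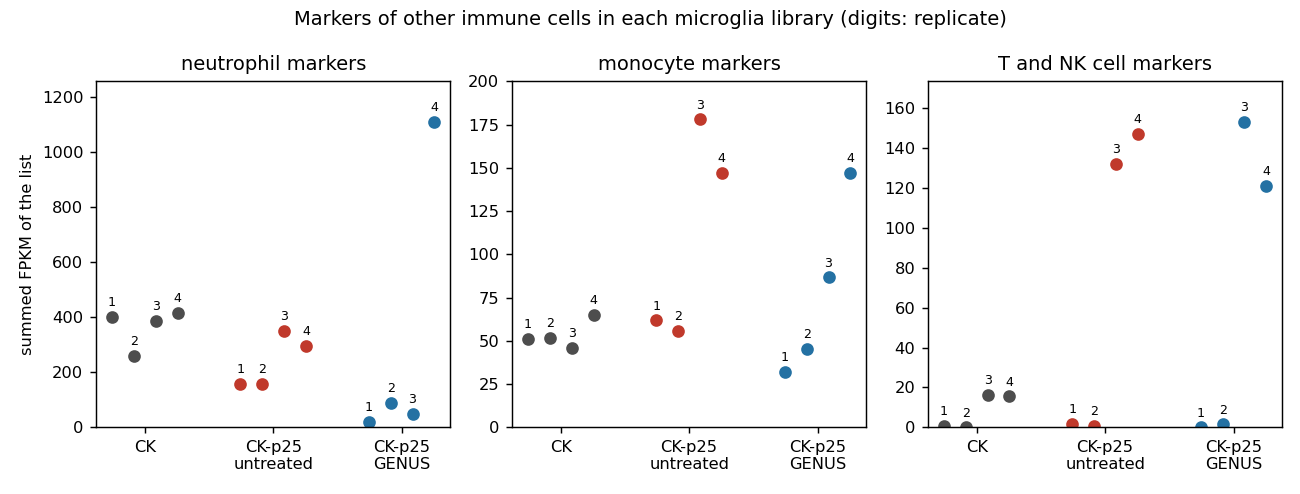
Summed FPKM (vertical axes, linear from 0) of neutrophil, monocyte, and T and NK cell markers in each microglia library, with the replicate number above each point. T and NK cell markers were at 121 to 153 in replicates 3 and 4 of the CK-p25 groups and at most 1.71 in replicates 1 and 2, and the neutrophil sum of 1110 belongs to GENUS replicate 4.

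The sorted cells carried microglia markers at high levels, with 15 of 15 listed markers tested and sums of 28500 to 33900 FPKM in CK, 25800 to 30200 in untreated and 27500 to 28700 in GENUS CK-p25 libraries. In untreated CK-p25 microglia 7 of the 15 were lower, among them P2ry12 (log2 change -1.82) and Csf1r (-0.50), and 3 were higher, which were Trem2, C1qa and Ptprc. These counts stand beside 10.9% of all tested genes called lower and 16.1% called higher. Itgam, which encodes the CD11b used in the sort, averaged 357 FPKM in CK and 319 in untreated CK-p25 microglia and was not called. Markers of oligodendrocytes summed to 747 and 961 FPKM in CK replicates 3 and 4 and to 134 to 275 in the other libraries. Astrocyte markers summed to 80.0 to 146 FPKM over the 12 libraries, perivascular macrophage markers to 72.2 to 305, endothelial markers to 8.76 to 35.0, B cell markers to 6.89 to 32.6, neuronal markers to 2.21 to 25.7 and dendritic cell markers to 1.59 to 5.26. Of these lists, limma called Gfap (astrocytes, log2 change 2.62), Ms4a7 (perivascular macrophages, 1.57) and Flt1 (endothelium, 1.23) higher in untreated CK-p25 than in CK libraries. It called Pecam1 (endothelium, -2.27), Snap25 (neurons, -1.62), Mag (oligodendrocytes, -0.69) and Slc1a3 (astrocytes, -0.39) lower.

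Myd88, the shared adaptor, fell in untreated CK-p25 microglia. It was at 74.60, 67.28, 68.76 and 70.53 FPKM in CK, at 45.33, 46.69, 64.32 and 55.74 in untreated CK-p25 and at 52.11, 55.95, 55.83 and 61.14 in GENUS CK-p25 libraries. Every CK-p25 library was below every CK library, and untreated replicates 1 and 2 were the lowest. The untreated mean was 24.6% below CK (log2 change -0.41, SE 0.11, 95% interval -0.65 to -0.18, limma adjusted p = 0.0111). The change was -0.61 (limma adjusted p = 0.00836) within replicates 1 and 2 and -0.21 (limma adjusted p = 0.319) within replicates 3 and 4. In untreated CK-p25 libraries these sets also differed in T and NK cell, monocyte and perivascular macrophage marker RNA. The difference in Myd88 change between the sets was not tested. Myd88 was called in 24 of 25 alternative settings.

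The make-up of receptor RNA moved towards Tlr2. The 8 receptors summed to 373 ± 22.6 FPKM (SD, n = 4) in CK, 812 ± 60.2 (n = 4) in untreated and 771 ± 127 (n = 4) in GENUS CK-p25 microglia. Without Tlr2 the sums were 268 to 323, 285 to 325 and 248 to 303 FPKM, and these ranges overlapped. Tlr2 made up 20.0% to 26.0% of the sum in CK, 60.7% to 67.9% in untreated and 57.3% to 66.8% in GENUS CK-p25 libraries. Tlr13 went from 26.8% to 12.1% and 11.5% of the sum and Tlr7 from 20.2% to 10.5% and 10.8%, although neither level was called different in untreated CK-p25 microglia. These shares restate the levels above, so no test was made on them.

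The ratio of Tlr2 to each of its partners was higher in every CK-p25 library than in any CK library. There were 4.42 ± 0.775 (SD, n = 4) FPKM of Tlr2 for each FPKM of Tlr1 in CK, 12.5 ± 0.842 in untreated and 13.2 ± 2.10 in GENUS CK-p25 microglia. Against Tlr6 the ratio was 7.02 ± 0.748, 44.4 ± 3.59 and 40.1 ± 5.13 (n = 4 each). Tlr1 was at 1.3 to 1.95 times Tlr6 in CK libraries and at 2.5 to 3.76 times Tlr6 in CK-p25 libraries. Relative to Itgam, which marks the sorted cells, Tlr2 was at 0.232 to 0.258 in CK and at 1.30 to 2.24 in CK-p25 libraries.

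**Figure D3:**
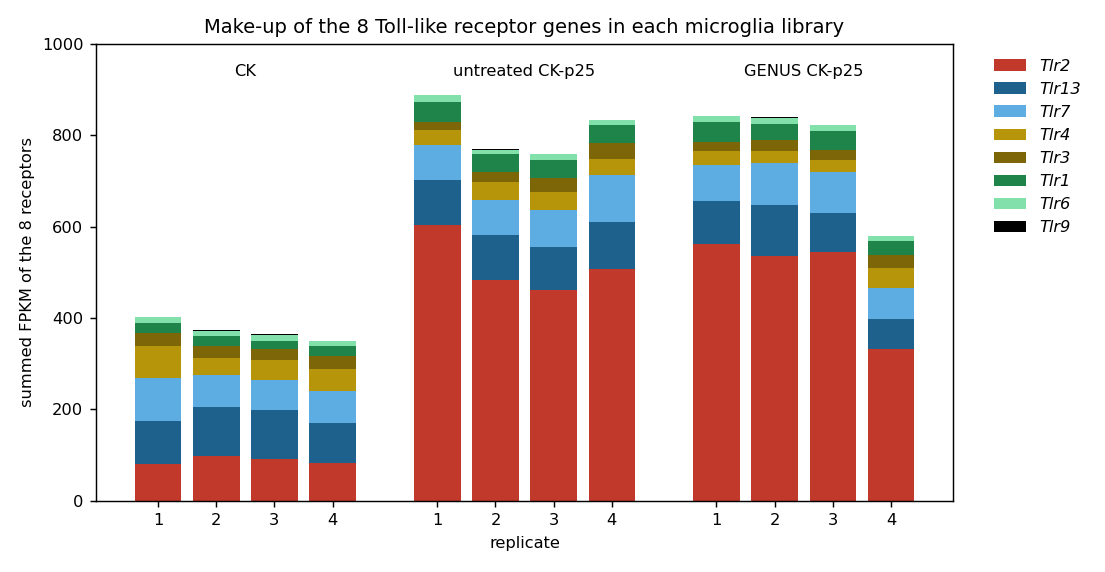
Summed FPKM (vertical axis, linear from 0) of the 8 Toll-like receptor genes in each microglia library (horizontal axis, replicate number by group), with the part of each receptor as a colour. The Tlr2 part is 20.0% to 26.0% of the bar in CK and 57.3% to 67.9% in CK-p25 libraries, while the rest of the bar is at 248 to 325 FPKM throughout.

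In CK microglia the order of mean levels was Cd14, Tlr13, Tlr2, Tlr7, Myd88, Tlr4, Tlr3, Tlr1, Tlr6 and Tlr9. Each neighbouring pair from Tlr13 to Tlr4 overlapped in its libraries, and the other neighbours did not. In both CK-p25 groups the order was Cd14, Tlr2, Tlr13, Tlr7, Myd88, Tlr1, Tlr4, Tlr3, Tlr6 and Tlr9. There Cd14 and Tlr2 stood apart from each other and from the rest, Tlr13 overlapped Tlr7, and Tlr1, Tlr4 and Tlr3 overlapped as neighbours. Over the 12 libraries Cd14 was above 99.3% of tested genes, Tlr2 above 98.4%, Tlr6 above 51.8% and Tlr9 above 0.731%.

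None of the 10 genes passed the test between GENUS and untreated CK-p25 microglia. Cd14 was at 1080, 1077, 1039 and 851.0 FPKM in GENUS replicates 1 to 4, so 3 GENUS libraries were above all untreated CK-p25 libraries and replicate 4 fell within their range. Each GENUS library was above the untreated library of the same number, in all 4 pairs. Its log2 change was 0.21 (SE 0.10, 95% interval -0.01 to 0.42, limma adjusted p = 0.697, and 0.57 with the replicate number as a block). Tlr1 was at 43.79, 33.85, 40.84 and 30.76 FPKM in GENUS libraries, where replicates 2 and 4 were below all untreated libraries (log2 change -0.14, 95% interval -0.40 to 0.12, limma adjusted p = 0.868).

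For Tlr2 the change with GENUS was -0.08 on the log2 scale (95% interval -0.40 to 0.25, limma adjusted p = 0.967), and 0.10 without GENUS replicate 4, the library at 332.9 FPKM. For Myd88 it was 0.10 (95% interval -0.14 to 0.33, limma adjusted p = 0.918). The log2 changes of the other 6 genes with GENUS ran from -0.21 for Tlr4 to 0.07 for Tlr6, with limma adjusted p of 0.859 to 0.993. These intervals leave room for changes in either direction, so the values do not show that the groups are alike. No gene's GENUS and untreated libraries were free of overlap, against 4.49% of tested genes. Over all 10394 genes limma called 0 between GENUS and untreated CK-p25 microglia (0.0%), with 762 at an unadjusted p under 0.05 and a lowest adjusted p of 0.53. Within replicates 1 and 2 it called 6 genes and within replicates 3 and 4 it called 4, none of them among the 10.

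Against CK, whose libraries are also those of the first comparison, GENUS CK-p25 microglia had higher Cd14 (log2 change 1.71, limma adjusted p = 3.41e-08), Tlr2 (2.45, adjusted p = 6.06e-08) and Tlr1 (0.85, adjusted p = 0.000107), beside 17.3% of tested genes called higher. Myd88 (log2 change -0.32, SE 0.11, limma adjusted p = 0.0391) and Tlr4 (-0.57, SE 0.19, limma adjusted p = 0.0359) were called lower, beside 13.4% of tested genes. Both lower calls were near the threshold. Myd88 lost its call in 11 of 25 alternative settings (adjusted p up to 0.221) and Tlr4 in 10 of 25 (up to 0.295). Without CK replicate 1, the library at 69.09 FPKM, the Tlr4 log2 change was -0.39 (limma adjusted p = 0.103), and the Tlr4 groups overlapped through GENUS replicate 4.

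**Figure D4:**
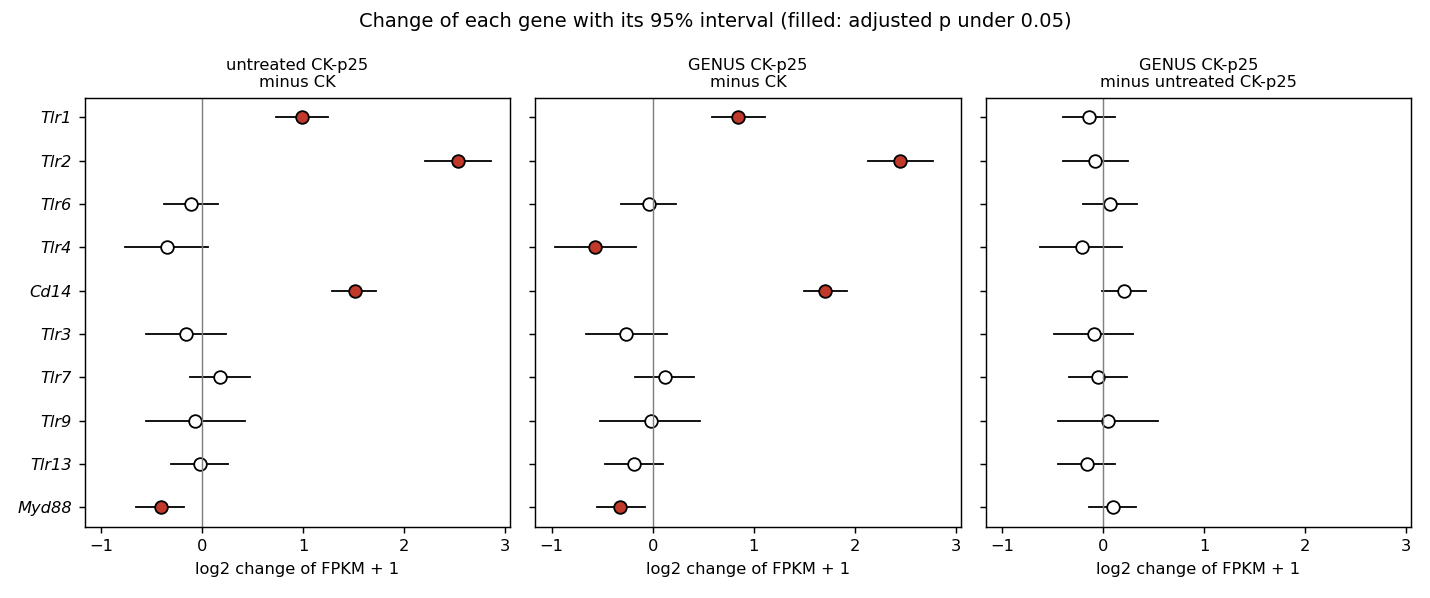
Log2 change of FPKM + 1 (horizontal axis) of each gene in the 3 comparisons, with lines for the 95% interval and filled points for a limma adjusted p under 0.05. Tlr2, Cd14 and Tlr1 lie at 0.85 or more against CK with and without GENUS, and all 10 intervals for GENUS minus untreated CK-p25 cross 0.

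The rest of the pathway was read from 74 genes in 7 lists by role, of which 68 were tested. In untreated CK-p25 microglia 28 were higher (41.2% of the 68, beside 16.1% of all tested genes) and 30 were not called. These lists were chosen with earlier results of these data known, so the shares are no test of the pathway. The 10 lower were 14.7% of the 68, near the 10.9% of all tested genes, and the lower count was 6 without CK replicate 2 and 2 within replicates 3 and 4. The log2 changes of the 68 had a median of 0.22, beside -0.02 for all tested genes. Target genes and negative regulators held most of the rises, at 11 of 14 and 7 of 12 tested.

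Receptors not among the 10 fell or did not pass. Tlr5, the flagellin receptor, fell from 5.74 ± 0.471 FPKM (SD, n = 4) in CK to 0.807 ± 0.514 (n = 4) in untreated CK-p25 microglia (log2 change -1.94, SE 0.26, limma adjusted p = 8.65e-05). Tlr12, a mouse sensor of profilin, fell from 29.0 ± 3.47 to 18.0 ± 1.96 FPKM (n = 4 each, log2 change -0.65, limma adjusted p = 0.00253), though not by the test within replicates 3 and 4 (-0.55, adjusted p = 0.116). Tlr8 was not called and Tlr11 was under the level tested.

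Of 9 tested co-receptors and chaperones 2 rose (22.2%), 2 fell (22.2%) and 5 were not called, counts too small to set apart from the 16.1% and 10.9% of all tested genes. Cd180, a receptor related to TLR4, rose from 9.83 ± 2.70 to 35.5 ± 4.28 FPKM (n = 4 each, log2 change 1.79, limma adjusted p = 9.94e-06). Its partner Ly86, which encodes MD-1, rose from 1155 ± 84.8 to 2456 ± 108 FPKM (n = 4 each, log2 change 1.09, limma adjusted p = 2.4e-06). Ly96, which encodes the MD-2 partner of TLR4, was at 108 ± 31.2 and 87.9 ± 17.2 FPKM (n = 4 each) and was not called. Unc93b1, which carries the endosomal receptors to endosomes, was lower by 0.24 on the log2 scale (adjusted p = 0.0436, lost in 14 of 25 alternative settings). Cnpy3, a folding factor of Toll-like receptors, was lower by 0.35 (adjusted p = 0.0245, lost in 5 of 25).

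Of the other adaptors, Tirap, which bridges TLR2 and TLR4 to MYD88, was lower (log2 change -0.60, limma adjusted p = 0.0319, lost in 8 of 25 alternative settings), and the other 3 tested were not called. Of 17 kinases and ligases 4 rose (23.5%), 1 fell (5.88%) and 12 were not called, which is near the shares of all tested genes. Map3k8, the kinase TPL2 that feeds the ERK cascade, rose from 16.9 ± 5.06 to 40.0 ± 9.27 FPKM (n = 4 each, log2 change 1.21, limma adjusted p = 0.000824). Irak2, a kinase bound through MYD88, rose by 0.46 and Traf3, a ligase of the interferon branch, by 0.63 on the log2 scale. Each lost its call in 1 alternative, Irak2 within replicates 1 and 2 (0.44, limma adjusted p = 0.103) and Traf3 within replicates 3 and 4 (0.47, limma adjusted p = 0.185). Ikbke, a kinase of interferon regulatory factors, was listed at 0 in CK replicates 1 and 2, at 0.168 and 0.133 FPKM in replicates 3 and 4, and at 0.917 to 4.09 in untreated CK-p25 libraries, and was called higher. Tab1, a partner of the kinase TAK1, was called lower (log2 change -0.54, adjusted p = 0.0383, lost in 9 of 25 alternative settings).

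Among 9 transcription factors 4 rose (44.4%), 2 fell (22.2%) and 3 were not called, beside 16.1% and 10.9% of all tested genes. The list is small, and no test was made on these counts. Irf7, a regulator of type I interferon genes that works below TLR7 and TLR9, rose from 5.78 ± 0.587 to 145 ± 60.7 FPKM (n = 4 each), a log2 change of 4.33 (SE 0.24, limma adjusted p = 3e-08). Relb and Nfkb2, subunits of the non-canonical NF-κB pathway, rose by 1.13 and 1.2 and Irf1 by 0.78 on the log2 scale. Nfkb1, which encodes p105 and p50, fell from 41.5 ± 3.84 to 18.7 ± 1.91 FPKM (n = 4 each, log2 change -1.11, limma adjusted p = 2.29e-05). Irf5, which binds MYD88, was the other to fall (log2 change -0.46, lost in 1 of 25 alternative settings).

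Of the 12 negative regulators tested, 7 rose (58.3%, beside 16.1% of all tested genes) and 4 were not called. Inpp5d alone fell (log2 change -0.60), which is 8.33% of the list beside 10.9% of all tested genes. The median log2 change was 0.54. Tnfaip3, which encodes the ubiquitin-editing enzyme A20, rose from 43.9 ± 10.2 to 153 ± 42.5 FPKM (n = 4 each, log2 change 1.77, limma adjusted p = 8.07e-06). Nfkbia, the NF-κB inhibitor IκBα, rose by 1.18, Dusp1, a phosphatase of MAP kinases, by 1.01 and Zc3h12a, a ribonuclease of cytokine mRNAs, by 0.86 on the log2 scale. Tnip1, a partner of A20, rose by 0.63 (adjusted p = 0.0234, lost in 5 of 25 alternative settings). Dusp1 was at 0.46 and lost its call under quantile normalization, and Zc3h12a was at 0.26 within replicates 1 and 2 and lost it there.

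Target genes rose in 11 of 14 tested (78.6%, beside 16.1% of all tested genes), with a median log2 change of 1.86. Ccl5, a chemokine, was at 2.42, 2.03, 8.18 and 9.70 FPKM in CK and at 44.1, 159, 260 and 441 in untreated CK-p25 libraries (log2 change 4.91, SE 0.57, limma adjusted p = 2.29e-05). T and NK cells also make Ccl5, whose change was 4.72 within replicates 1 and 2 and 5.10 within replicates 3 and 4. The part of these cells in it was not tested. Cxcl10, an interferon-induced chemokine, was at 4.24 to 9.18 and 106 to 464 FPKM (log2 change 4.75). Il1b, a cytokine made as an inactive precursor, was at 58.5 to 126 and 309 to 705 FPKM (log2 change 2.10). Ptgs2, the enzyme cyclooxygenase-2, rose by 2.41 and Cd40, a co-stimulatory receptor, by 2.14 on the log2 scale. Il6 was the only target gene called lower, from 13.6 to 19.1 FPKM in CK to 2.57 to 9.74 in untreated CK-p25 libraries (log2 change -1.66, limma adjusted p = 0.00569, lost in 1 of 25 alternative settings).

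With GENUS, 0 of the 68 tested pathway genes were called against untreated CK-p25 microglia by limma, with log2 changes of -0.58 to 0.64. Against CK, GENUS CK-p25 microglia had 28 higher (41.2%, beside 17.3% of all tested genes). The choice of the lists with earlier results known limits this share too. The 10 lower (14.7%) were near the 13.4% of all tested genes, and were 6 within replicates 1 and 2 and 4 within replicates 3 and 4.

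**Figure D5:**
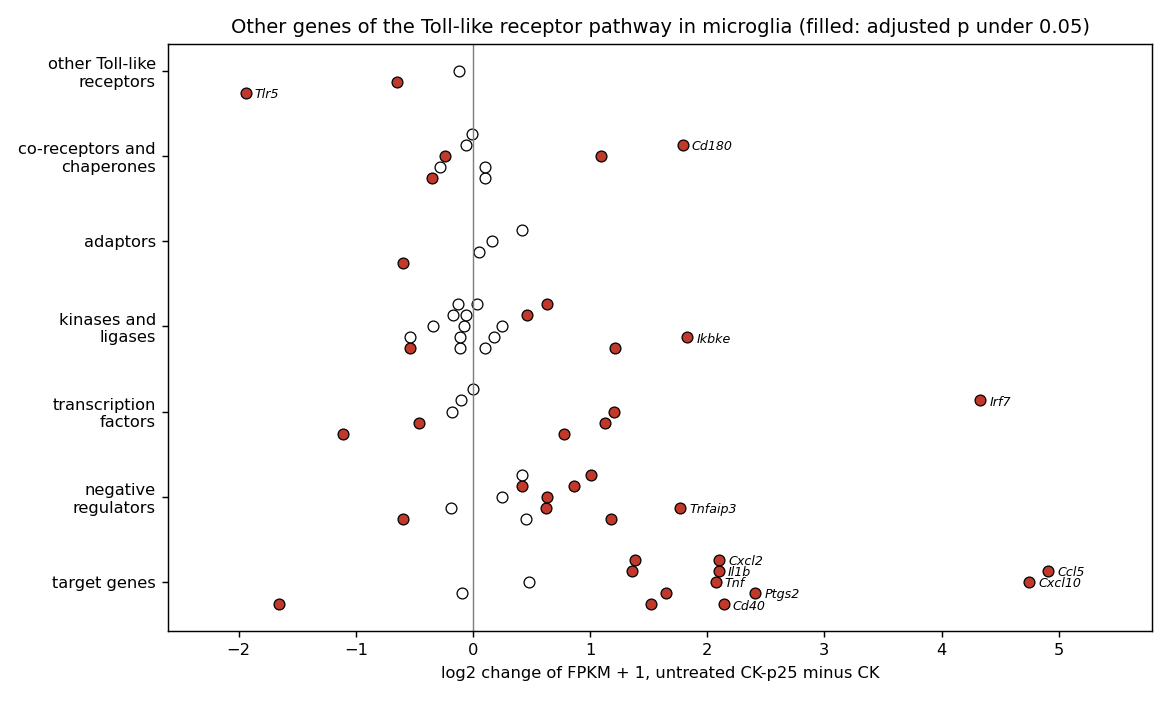
Log2 change of FPKM + 1 between untreated CK-p25 and CK microglia (horizontal axis) of the 68 tested pathway genes by role (vertical axis), with filled points for a limma adjusted p under 0.05. Target genes are mostly to the right of 0, with Ccl5 at 4.91 and Cxcl10 at 4.75, and Tlr5 lies at -1.94.

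The genes whose profiles were most like those of the 4 called genes were found over the 12 libraries among 9762 named genes. Likeness was the smallest root mean square difference between centred profiles of log2(FPKM + 1). Like Tlr2 were Cxcr4 (difference 0.187), Hif1a (0.217) and Plaur (0.221), where the Tlr2 profile itself has an SD of 1.19. Cxcr4 was at 0.535, 7.94 and 7.57 FPKM in CK, untreated and GENUS CK-p25 microglia. Its CK level is under the added 1 FPKM, which understates its rise, so its likeness to Tlr2 holds only on this scale. Hif1a was at 41.1, 222 and 197 FPKM in CK, untreated and GENUS CK-p25 microglia. Like Cd14 (SD 0.773) were Pkm and Hcst (0.120 each), and Pkm was at 121, 390 and 427 FPKM. Like Tlr1 (SD 0.46) were Eif3k (0.118), Lamp1 (0.131) and Cd84 (0.132), and Lamp1 was at 888, 1680 and 1627 FPKM. Like Myd88 (SD 0.219) were Irf5 (0.0866), Acadm (0.0898) and Stx5a (0.0919). The likeness is a description over libraries that share their groups.

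Neuronal nuclei sorted by NeuN from visual cortex gave 31 libraries with another kit. There were 5 of CK mice, 5 of CK-p25 mice without stimulation and 4 with GENUS, as well as 6 of wild type mice, 6 of P301S mice without stimulation and 5 with GENUS. P301S mice carry mutant human tau, were 8 months old and had GENUS for 22 days. No gene of the 10 passed 3.13 FPKM in any of these libraries, and for 9 of the 10 the highest neuronal value was below the lowest microglia value. The exception was Tlr9, which was above 0 in 16 of 31 libraries and reached 0.757 FPKM, within its microglia range from 0.533 upwards. Tlr3 was above 0 in 19 libraries and reached 1.74 FPKM. Cd14 reached at most 0.454 FPKM and was listed at 0 in 28 of the 31, against a lowest microglia value of 302.1. Tlr2 reached at most 0.465 FPKM and was above 0 in 5 libraries, 4 of them from untreated CK-p25 mice. Tlr4 was above 0 in 4 libraries, all of them from GENUS CK-p25 mice, at 0.130 to 0.328 FPKM, and was listed at 0 in the other 27. Myd88 was the most abundant, at up to 3.13 FPKM and listed at 0 in 3 of 31. An exact 0 in these files is a listing and need not mean that no RNA was present, and the kits differ, so no test was made between neurons and microglia.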

How the data were processed

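Gene expression was measured by RNA sequencing of sorted microglia (12 libraries, 4 per group, SMART-Seq v4 kit) and of neuronal nuclei (31 libraries, SMARTer Pico kit), per the labels' protocols. The authors deposited FPKM values for 23953 symbols in each library. The submitters' processing notes name STAR, Cufflinks 2.0.0 and mm9 without saying what each did, and the annotation, strand setting and filters were not given in the sources used here. Depth is not given. By the steps between low values (under 0.5 FPKM), 1 fragment was worth up to 1.27-fold different FPKM between microglia libraries, and median-ratio factors differed by at most 1.018-fold. Relative to CK replicate 1, 1 fragment was worth 0.92 to 1 in CK, 1.06 to 1.17 in untreated and 0.986 to 1.05 in GENUS CK-p25 libraries. Summed FPKM was 456900 to 489300 in CK and 567900 to 634600 in CK-p25 libraries, without overlap. Summed FPKM thus set CK apart from both CK-p25 groups. The value of 1 fragment set only the untreated CK-p25 libraries apart, as the CK and GENUS ranges overlapped. The cause was not tested.

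Groups and replicate numbers came from the titles. The labels do not tie replicates to separate animals, and the p-values measure only how these samples vary, which may be technical variation. Microglia genes with a mean of at least 1 FPKM (10394) were fitted on log2(FPKM + 1) with limma 3.58.1 in R 4.3.3, with 3 groups sharing 1 estimate of the spread, a mean-variance trend and Benjamini-Hochberg adjustment over all tested genes. Tests are two-sided. The log scale understates changes of low genes. An exact permutation test planned for genes of the set under the filter was not needed. The fit was tested on simulated data. The members and lists were chosen with earlier results of these data known. The text names every member, up to 5 called genes of each pathway list by size of change in untreated CK-p25 against CK, and 3 genes of like profile for each called member (for Cd14, 1 of them is not reported here), and Irf5, Inpp5d, Il6, Ly96, Tlr8, Tlr11 and the markers named were added after their values were seen. Alternatives were 22 planned settings and 3 added after seeing the data (only replicates 1 and 2, only replicates 3 and 4, and a term for these sets).

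As a check of pairing, deviations from the group mean were correlated between libraries of the same number. The correlations were 0.105 to 0.338 between untreated and GENUS CK-p25 and 0.011 to 0.142 with CK. Between untreated and GENUS CK-p25 the same number was the best match for replicates 1, 2 and 4, but not for 3. Between CK and untreated CK-p25 it was so for replicates 2, 3 and 4, but not for 1. Between CK and GENUS CK-p25 it was so for replicates 2 and 3, but not for 1 and 4. The ranges of the correlations overlap and no cut-off was set, so whether libraries of the same number are paired is not settled here. The main fit has no term for pairing. The blocked fit still called 0 genes between GENUS and untreated CK-p25. Promoter sequences came from the RefSeq table of GRCm38.p6, which is another build than that of the files. The windows carry coordinates of that table's build, and no coordinates were assigned to the features of the files.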

Additional observations from a re-analysis of the deposited data

Results flagged for a closer look

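In 5 of the 111 groups of 4 libraries examined, 1 library stood apart from the other 3 by Dixon's criterion (a gap to its neighbour that takes up most of the group's range), where chance gives about 5.55. Tlr2 was at 332.9 FPKM in GENUS CK-p25 replicate 4, against 536.8 to 562.2 in the others. Ly86 was at 2099 FPKM in the same library, against 2668 to 2782, and its neutrophil markers summed to 1110 FPKM against 19.7 to 88.2. The part of the neutrophil RNA in these values was not tested. Tlr1 was at 44.49 FPKM in untreated CK-p25 replicate 1, against 39.36 to 40.19. Tlr7 was at 102.7 FPKM in untreated CK-p25 replicate 4, against 77.91 to 81.70. Cd180 was at 5.824 FPKM in CK replicate 1, against 10.61 to 11.59.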

How the results depend on the processing

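The rises of Tlr2, Cd14 and Tlr1 in both CK-p25 groups against CK kept their direction and their call in all 25 alternative settings, with log2 changes in untreated CK-p25 of 2.32 to 2.59, 1.09 to 1.57 and 0.91 to 1.02. Over the 10 genes and 3 comparisons, 692 alternative values kept their direction and side of the threshold, 22 lost a call, 2 gained one and 28 changed sign. Tlr9 had 23 of the 25 alternatives. It was not tested with a mean of at least 5 FPKM, nor without GENUS CK-p25 replicate 2 (1.908 FPKM), where its mean fell under 1 FPKM. The ranges below leave that setting out. The count of the 10 genes called lower in GENUS CK-p25 against CK, 2 as reported, was 0 with no filter, 0 with no trend, 0 in either replicate set, 1 with only the 2 groups compared, and 0 to 2 when each replicate was left out. The count called lower in untreated CK-p25 against CK, 1 as reported, was 2 in replicates 1 and 2 (Tlr3 joined) and 0 in replicates 3 and 4. In those sets of 2 libraries a group, 1621 genes were called in untreated CK-p25 and 1918 in GENUS CK-p25 against CK in replicates 3 and 4 (2802 and 3195 as reported), and 6 and 4 genes were called with GENUS in replicates 1 and 2 and in replicates 3 and 4. The 4 were Cap1, Lrrc25, Meox2 and Snora70. Pathway genes called lower, 10 as reported in each, were 2 in untreated CK-p25 within replicates 3 and 4, 6 to 10 when each replicate was left out (6 without CK replicate 2), and 6 and 4 in GENUS CK-p25 within replicates 1 and 2 and within replicates 3 and 4. The cause was not tested beyond the smaller number of libraries.

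The changes of sign were all in differences that were not called. Tlr7 in GENUS CK-p25 against CK was -0.08 under quantile normalization, which also called Tlr13 lower there (-0.43). Against CK in GENUS CK-p25, replicates 1 and 2 gave 0.02 for Tlr13, 0 for Tlr6 and 0.28 for Tlr9, and leaving out a replicate gave -0.10 to 0.04 for Tlr6 and -0.08 to 0.11 for Tlr9. Against CK in untreated CK-p25, replicates 1 and 2 gave -0.07 for Tlr7 and 0.10 for Tlr9, replicates 3 and 4 gave 0.24 for Tlr3, and leaving out a replicate gave -0.08 to 0.02 for Tlr13 and -0.16 to 0.01 for Tlr9. With GENUS against untreated CK-p25, replicates 1 and 2 gave 0.06 for Tlr13, 0.02 for Tlr2, 0.19 for Tlr3 and 0.11 for Tlr7, replicates 3 and 4 gave -0.03 for Myd88 and -0.09 for Tlr9, and leaving out a replicate gave -0.15 to 0.10 for Tlr2, -0.26 to 0.07 for Tlr3, -0.10 to 0.04 for Tlr7 and -0.03 to 0.18 for Tlr9.

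With the replicate number as a block, 2981 genes were called in untreated CK-p25 and 3328 in GENUS CK-p25 against CK, no call of the 10 genes changed, and of the named pathway genes Tab1 lost its call. Absolute depth is unknown, so no detection limit is given for Tlr9 or for the values in neuronal nuclei.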
